A study of Mus musculus with 18 samples.

Results

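The levels of 10 neuronal cytoskeleton and growth cone genes were followed through motor neuron (MN) differentiation and Hox induction: Tubb3, Nefl, Nefm, Nefh, Ina, Prph, Map2, Mapt, Stmn2 and Gap43. They were chosen by name among the 27179 genes of the count table, and all 10 were found by symbol and passed the filter on low counts. RNA-seq was available for 18 libraries, 3 in each of 6 groups, all from lines of the Ainv15 mouse embryonic stem cell (ESC) background grown as embryoid bodies with 1 µM retinoic acid and 0.5 µM SAG, an agonist of Hedgehog signaling. Progenitors were collected on day 2 from the iCre line without doxycycline (Dox). Control neurons (noDox) came from the iFlag.Hoxc6 line on day 4 without Dox. The iHoxc6, iHoxc8, iHoxc9 and iHoxc10 neurons were harvested on day 4 and had received 3 µg/ml Dox for the last 48 h, which switched on a single N-terminally Flag-tagged transgene placed at the HPRT locus. Each induced group is thus a single engineered line, the control shares its line with iHoxc6 only, and day 2 differs from day 4 in line as well as in time. By the study's methods the replicates were independent differentiations, and the day 4 cultures held mostly postmitotic MNs together with interneurons.

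Axons and dendrites are held open by microtubules and neurofilaments. Tubb3 encodes the neuron-specific class III beta-tubulin. Neurofilaments are built from the light, medium and heavy chains encoded by Nefl, Nefm and Nefh, joined by alpha-internexin (Ina) in young neurons and by peripherin (Prph), an intermediate filament of neurons whose axons leave the central nervous system, spinal MNs and sensory neurons among them. Map2 and Mapt encode the microtubule-binding proteins MAP2, which is enriched in dendrites, and tau, which is enriched in axons. Stmn2 and Gap43 encode growth cone proteins, the first a tubulin-binding stathmin and the second a membrane-attached protein of extending axons.

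Total counts ranged from 24498630 to 33168533 per library, and levels are given as CPM, counts relative to library size after TMM normalization. In these units 3 counts corresponded to 0.0904 to 0.122 CPM, a floor that allows for counting error alone. In each induced line the induced gene lay at 213 CPM or more in all 3 libraries, and in the control libraries these 4 genes lay at 5.17 CPM or less. In the iHoxc10 libraries Hoxc6 also lay at 43.1 to 49.4 CPM. By the labels the libraries came from 4 sequencing runs. Control and iHoxc6 shared a run, iHoxc9 and iHoxc10 shared a run, and day 2 and iHoxc8 each had their own. Within-run contrasts were thus iHoxc6 against control and iHoxc9 against iHoxc10. Between iHoxc9 and iHoxc10 the effects of line and Hox gene cannot be told apart. In the contrasts across runs the effects of run, line and Hox gene, or of day, cannot be told apart. The second day 2 library stood apart, with 5.76% of its counts in a single gene without a symbol, and the second control library differed from the other two for Nefl, Prph and Stmn2. That control library was also higher in progenitor markers, with a summed level of 338.8 CPM against 184.6 and 183.1 CPM, and in cell cycle markers, with 1220 CPM against 817.2 and 718.2 CPM. What part this had in the comparisons with control was not tested beyond leaving the library out. Of 7 MN markers, all 7 were higher in control than on day 2, as were 21.2% of all genes by the test given below. The markers' summed level was 554.8 ± 14.0 CPM (SD, n = 3) against 30.5 ± 13.2 CPM. In such bulk samples fewer neurons and less RNA per neuron cannot be told apart. The strand setting of the counting was not given in the sources used here, and the loci of Nefm, Nefh and Ina overlap those of other counted genes (A230070E04Rik, Ap1b1 and Nt5c2), so their counts carry that uncertainty.

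The promoters of Prph and Map2 are shown because these 2 genes differed most among the day 4 groups. The sequences are RefSeq's for GRCm38.p6, with 250 bases before and 50 after the start of transcription, both on the plus strand, at chr15:99054924-99055223 for Prph and at chr1:66175079-66175378 for Map2. The start used there lies 1595 bases downstream of the start of the whole Prph locus given below and 127 bases downstream of that of Map2, since a locus spans all transcripts of a gene. Capitals mark matches, on either strand, to 4 patterns that do not overlap each other there. TATAAA is the core promoter box near many start sites. The pattern CCAAT is bound by NF-Y. An E-box with the letters CAGCTG is bound by neurogenic bHLH proteins. The fourth, TGATTNAT, holds letters favored by HOX proteins bound together with PBX.
Prph promoter: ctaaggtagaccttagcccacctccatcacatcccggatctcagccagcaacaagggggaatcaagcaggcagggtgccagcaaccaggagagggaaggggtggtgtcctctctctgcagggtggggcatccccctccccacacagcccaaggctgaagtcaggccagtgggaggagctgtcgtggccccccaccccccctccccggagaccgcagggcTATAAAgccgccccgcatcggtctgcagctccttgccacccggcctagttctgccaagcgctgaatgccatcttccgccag
Map2 promoter: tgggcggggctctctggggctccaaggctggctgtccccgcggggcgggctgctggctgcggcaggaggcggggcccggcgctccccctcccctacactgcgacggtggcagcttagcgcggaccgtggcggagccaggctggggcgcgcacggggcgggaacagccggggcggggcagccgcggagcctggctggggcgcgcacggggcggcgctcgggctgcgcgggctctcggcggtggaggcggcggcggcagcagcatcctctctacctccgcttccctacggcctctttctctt
The Prph window held TATAAA 31 bases before the start, which 13.6% of the 32851 promoters in the table also held somewhere in their window. The Map2 window held none of the 4 patterns, had a GC content of 77.7% against 64.7% for Prph, and contained 37 CG dinucleotides against 10. Over all promoters CCAAT occurred in 37.4%, CAGCTG in 16.3% and TGATTNAT in 3.22%. No match says only that these letters are not in the window.

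**Figure D1:**
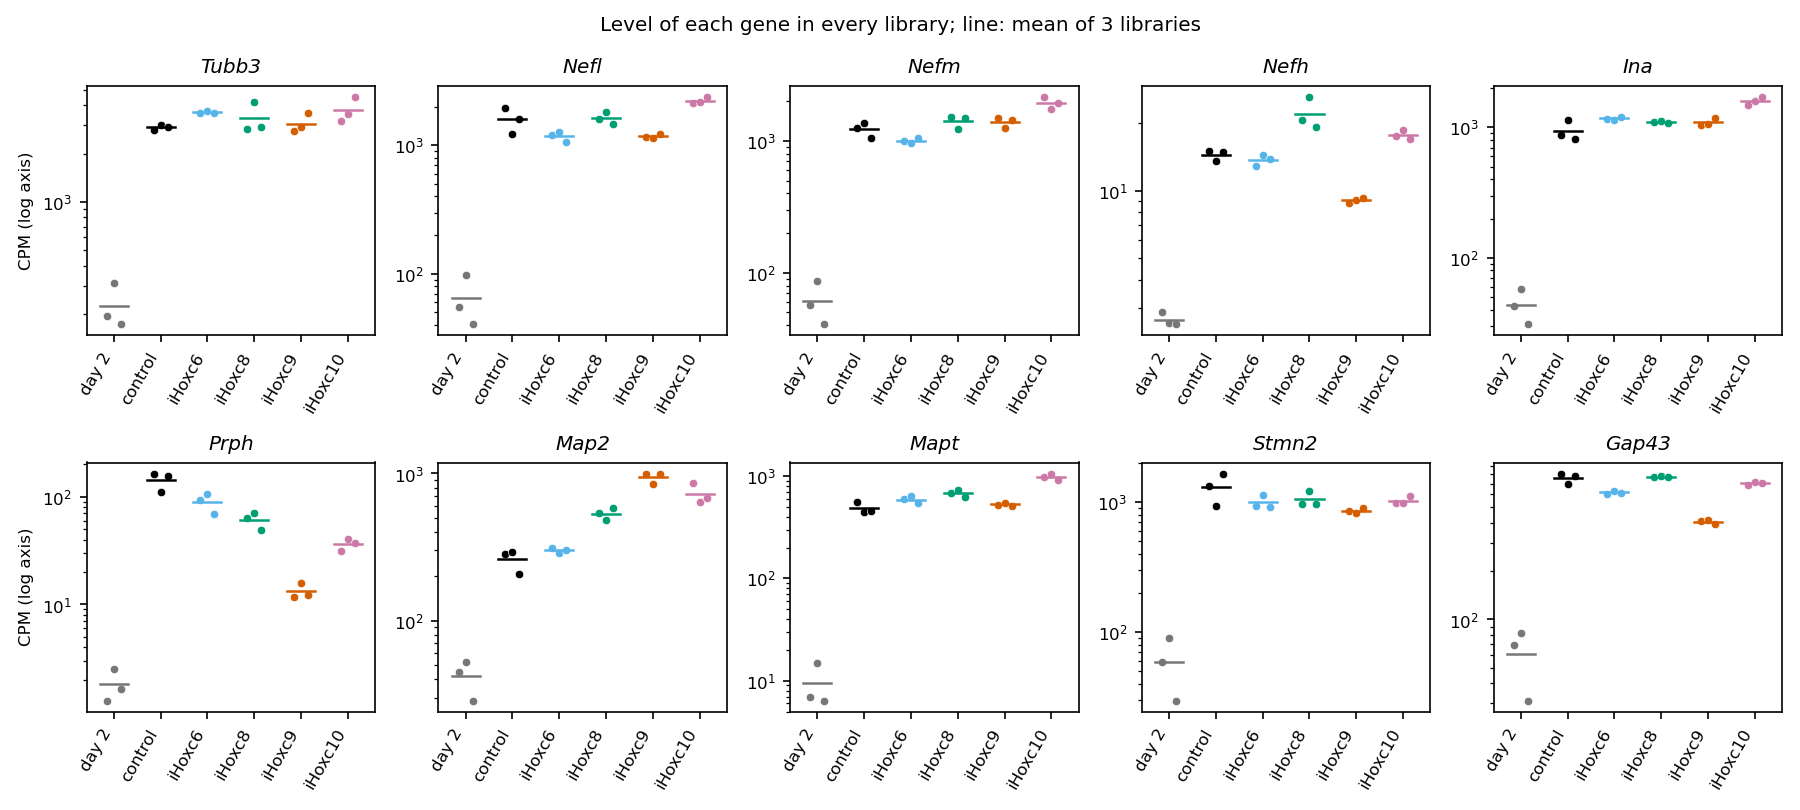
Level of each gene in CPM (log axis) in every library of the 6 groups, with points for the 3 libraries and a line for their mean. All 10 genes were lowest on day 2, and among the day 4 groups Prph ran from 13.3 to 143.5 CPM and Map2 from 260.8 to 945.6 CPM.

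The first comparison asked how far the 10 genes rose as progenitors became neurons. All 10 rose in all 5 day 4 groups, and in every group all 3 libraries lay above all 3 of day 2. Of all genes 25.2% were so separated in control, 29.0% in iHoxc6, 27.1% with iHoxc8, 30.0% with iHoxc9 and 29.2% with iHoxc10. In control neurons the median log2 fold change was 4.38, against 0.0 over all 20944 genes tested, and the members ran from 2.45 for Nefh to 6.31 for Prph. The members together took 0.0568% ± 0.0164 (SD, n = 3) of all counts on day 2 and 0.953% ± 0.0570 in control neurons. A gene passed the test at an adjusted p under 0.01 in edgeR's quasi-likelihood test, and 10 of 10 members passed as higher against 21.2% of all genes in control. For the induced lines the share of all genes was 22.7% in iHoxc6, 22.3% with iHoxc8, 23.4% with iHoxc9 and 24.1% with iHoxc10. With a log2 fold change above 2 as well, 10 members passed in control (6.74% of all genes), iHoxc6 (7.08%), iHoxc8 (7.64%) and iHoxc10 (9.13%), and 9 in iHoxc9 (8.0%), where Nefh rose by 1.78. These 5 comparisons share the day 2 libraries. Without the second day 2 library, which had the highest day 2 level of 9 of the members, all 10 still passed in each comparison and the median in control was 4.63.

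Tubb3 (chr8:123411553-123422015, plus strand) rose from 194, 310 and 173 CPM in the 3 day 2 libraries to 2823, 3041 and 2951 CPM in control neurons, a log2 fold change of 3.71 (SE 0.23, adjusted p = 4.37e-12). Its paralogs moved unequally. Of 9 other tubulin genes 7 rose, against 21.2% of all genes, Tubb4a by 3.66, Tubb2a by 3.11 and Tubb2b by 3.06. Tubb6 fell by 2.15, and Tubb4b, at 302.9 against 473.1 CPM, did not pass the test (adjusted p = 0.0147). Beta-tubulins are similar in sequence, and how reads matching several of them were counted is not given in the sources used here.

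Among the neurofilament genes, Nefl (chr14:68083863-68089095, plus strand) and Nefm (chr14:68119545-68125004, minus strand) rose side by side. Nefl was at 55.4, 97.9 and 40.5 CPM on day 2 and at 1939, 1222 and 1613 CPM in control, and Nefm was at 56.6, 86.0 and 40.8 CPM and at 1265, 1366 and 1051 CPM. Nefh (chr11:4938754-4948064, minus strand), the chain added last as axons mature, stayed low. It was at 2.86, 2.56 and 2.53 CPM on day 2 and 15.03, 13.6 and 14.9 CPM in control, above the limit of 3 counts in all these libraries. Ina (chr19:47014681-47025327, plus strand) rose from 42.5, 57.5 and 31.0 CPM to 871, 1130 and 807 CPM. Prph (chr15:99053579-99058978, plus strand) rose from 1.28, 2.50 and 1.66 CPM to 163, 112 and 156 CPM, a log2 fold change of 6.31.

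The intermediate filament genes Vim and Nes, which progenitors use, did not pass the test in control against day 2. Against day 2 both passed as higher in iHoxc6, iHoxc8 and iHoxc9, as did Vim in iHoxc10. Neither passed in any induced line against control. Vim was at 655.9 CPM in control against 460.1 CPM on day 2 (adjusted p = 0.0223), and Nes at 237.4 against 159.6 CPM (adjusted p = 0.0332). With Gfap they summed to 740.1, 1276 and 663.3 CPM in the control libraries, the second again apart. Gfap, the astrocyte filament, had at most 3 counts in every day 4 library. Of 5 other intermediate filament genes (Krt8, Krt18, Krt19, Des and the lamin gene Lmna) 4 fell in control against day 2, against 21.2% of all genes. The log2 fold changes were -3.48 for Krt18, -3.15 for Krt8 and -2.92 for Krt19.

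Map2 (chr1:66175202-66442583, plus strand) rose less than Mapt (chr11:104229409-104332090, plus strand). Map2 was already at 44.6, 52.6 and 28.6 CPM on day 2 and reached 284, 292 and 206 CPM in control, a log2 fold change of 2.64 (SE 0.20). Mapt was at 7.01, 14.8 and 6.40 CPM and reached 562, 443 and 456 CPM, a log2 fold change of 5.69 (SE 0.25). The growth cone genes Stmn2 (chr3:8509527-8561604, plus strand) and Gap43 (chr16:42248552-42340651, minus strand) rose by 4.47 and 3.64. Stmn2 was at 58.5, 89.3 and 29.6 CPM on day 2 and 1336, 938 and 1651 CPM in control, and Gap43 at 69.3, 81.9 and 31.3 CPM and 806, 694 and 781 CPM.

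**Figure D2:**
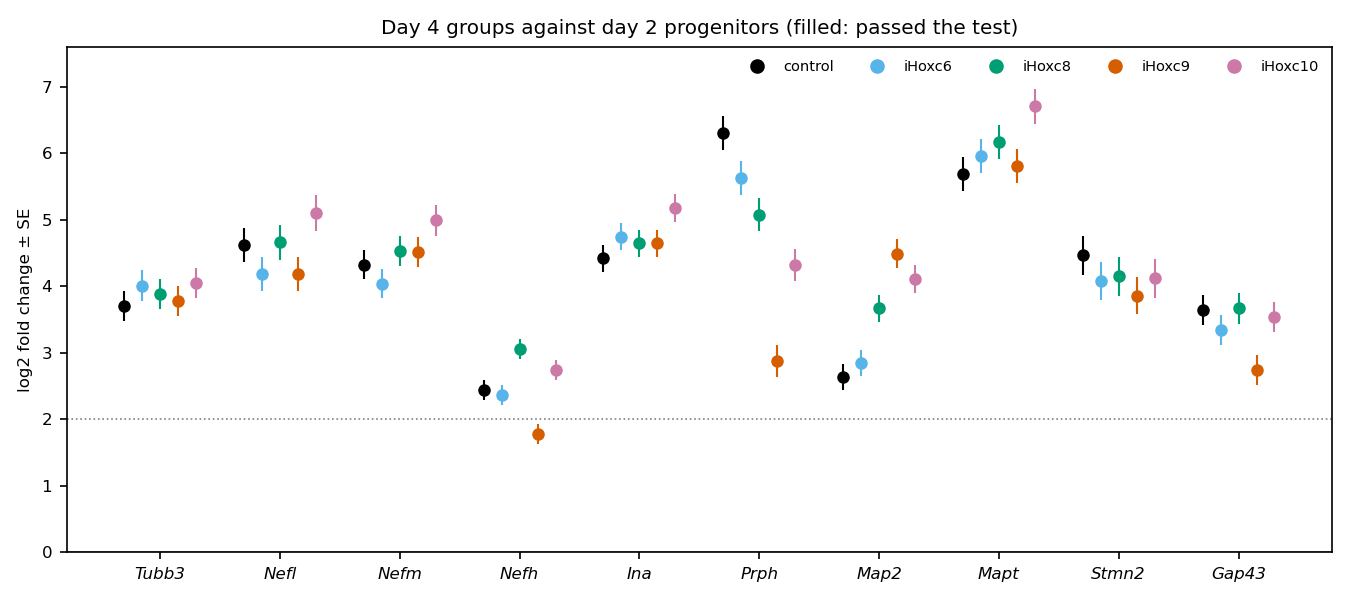
Log2 fold change of each gene (x axis) in the 5 day 4 groups against day 2 progenitors, with bars for the SE; the dotted line marks a log2 fold change of 2. All points are filled because all passed the test, and only Nefh in iHoxc9, at 1.78, lies under the dotted line.

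Other genes of the same structures moved with the members, while 21.2% of all genes passed as higher in control against day 2. In control neurons 15 of 17 genes of microtubule-associated and motor proteins rose against day 2, with a list median of 2.67, as did 15 of 17 growth cone and axon outgrowth genes (median 1.72), 7 of 7 genes of the axon initial segment and spectrin scaffold (median 1.69) and 12 of 12 pan-neuronal genes (median 3.08). The largest rises were those of Stmn4 (5.73), the adhesion gene Cntn2 (4.89) and Stmn3 (4.56). Measured from the pan-neuronal median, the members ran from 0.63 below (Nefh) to 3.23 above (Prph). Genes of dividing progenitors moved the other way: 7 of 7 cell cycle genes and 4 of 7 neural progenitor genes fell, against 21.2% of all genes, and Pax6 fell by 3.54.

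Levels can be compared between genes only per length. Per kilobase of exon, Tubb3 was the highest of the 10 in all 6 groups, with 1573 CPM per kilobase in control, and Nefh was the lowest in all 6. The ranks between them depended on the length used. Stmn2 ranked 5 in control by the union of its exons and 1 by coding length, because most of its transcript is untranslated.

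The second comparison asked how these levels differed between each induced line and control neurons. Every induced library had received Dox and no control library had, so the effects of Dox and Hox gene cannot be told apart, in iHoxc6 as well. Prph and Map2 differed most. Prph was lower in all 4 lines and passed in 3, Map2 was higher in all 4 and passed in 3, and Tubb3 and Stmn2 passed in none. In the test of any difference among the 5 day 4 groups, 7 of 10 members passed against 22.6% of all genes, led by Prph (adjusted p = 5.25e-10), Map2 (1.52e-07) and Nefh (4.54e-06). Ina (0.0140), Stmn2 (0.362) and Tubb3 (0.520) did not pass. The 7 fell to 3 without iHoxc10 replicate 1 or 2 and to 4 without any of the iHoxc6 libraries. All 4 comparisons share the control libraries.

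Tubb3 was at 2823, 3041 and 2951 CPM in control, at 3605, 3711 and 3579 CPM in iHoxc6, at 2861, 4199 and 2925 CPM in iHoxc8, at 2753, 2921 and 3584 CPM in iHoxc9 and at 3197, 3525 and 4497 CPM in iHoxc10. The groups overlapped widely, apart from iHoxc6 and iHoxc10, whose libraries all lay above control. No difference passed the test, and the highest mean was 1.27 times the lowest.

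Prph was lower in every induced library than in every control library. It was at 163, 112 and 156 CPM in control, 92.9, 107 and 69.3 CPM in iHoxc6, 62.9, 71.1 and 49.4 CPM in iHoxc8, 31.6, 40.7 and 36.9 CPM in iHoxc10 and 11.8, 15.8 and 12.3 CPM in iHoxc9. The libraries of iHoxc6 and iHoxc8 overlapped, and iHoxc9 had the lowest levels, still above those of day 2. Against control it fell by 1.23 on the log2 scale in iHoxc8 (SE 0.20, adjusted p = 0.000851), by 1.98 in iHoxc10 (SE 0.20, adjusted p = 4.97e-07) and, furthest, fell by 3.43 in iHoxc9 (SE 0.22, adjusted p = 1.59e-10). In iHoxc6, the only line that shared a run with control, the value of -0.68 did not pass (adjusted p = 0.0597), although it did without control replicate 2 (adjusted p = 0.00889, in a range of 0.00889 to 0.257 over the alternatives). Prph ranked 79 of 20944 genes by the p of the test over all day 4 groups.

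The other filament genes moved less. Nefh was at 15.03, 13.6 and 14.9 CPM in control, 12.8, 14.5 and 13.9 CPM in iHoxc6, 20.6, 26.1 and 19.4 CPM in iHoxc8, 8.84, 9.09 and 9.31 CPM in iHoxc9 and 17.6, 18.7 and 17.0 CPM in iHoxc10. Its libraries lay under all of control in iHoxc9 and above them in iHoxc8 and iHoxc10. It fell by 0.67 in iHoxc9 (SE 0.14, adjusted p = 0.00110) and rose by 0.60 in iHoxc8 (SE 0.14, adjusted p = 0.00961), a call that was kept in 4 of 25 alternatives and lost with the replicate block (adjusted p = 0.0139, in a range of 0.000492 to 0.101). Nefl was at 1198, 1276 and 1066 CPM in iHoxc6, 1609, 1834 and 1469 CPM in iHoxc8, 1170, 1144 and 1222 CPM in iHoxc9 and 2141, 2163 and 2366 CPM in iHoxc10. The iHoxc10 libraries lay above all others, but no line passed for Nefl against control. Nefm reached 2143, 1754 and 1945 CPM in iHoxc10, above all control libraries, with a log2 difference of 0.67 that did not pass (adjusted p = 0.0144). Ina rose in iHoxc10, where it was at 1482, 1577 and 1696 CPM, by 0.76 (SE 0.17, adjusted p = 0.00270). That call was lost without control replicate 1 or 3, without iHoxc10 replicate 2 or 3, and in a fit of only the 2 groups (adjusted p up to 0.0189).

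Map2 rose where Prph fell most. It was at 284, 292 and 206 CPM in control, 313, 287 and 304 CPM in iHoxc6, 540, 479 and 585 CPM in iHoxc8, 995, 848 and 995 CPM in iHoxc9 and 857, 636 and 686 CPM in iHoxc10. The iHoxc8, iHoxc9 and iHoxc10 libraries all lay above control, and those of iHoxc6 overlapped it. The log2 fold change was 1.86 in iHoxc9 (SE 0.19, adjusted p = 1.90e-07), 1.48 in iHoxc10 (SE 0.19, adjusted p = 7.95e-06) and 1.04 in iHoxc8 (SE 0.19, adjusted p = 0.00214), where the call was lost without control replicate 3, iHoxc8 replicate 1 or iHoxc8 replicate 3 (adjusted p up to 0.0247). Mapt rose in iHoxc10, with 989, 1051 and 908 CPM against 562, 443 and 456 CPM in control, by 1.01 (SE 0.21, adjusted p = 0.00101). In iHoxc9 Mapt was at 524, 545 and 514 CPM and did not pass (adjusted p = 0.743).

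Of the growth cone genes, Gap43 fell in iHoxc9. It was at 806, 694 and 781 CPM in control, 607, 633 and 612 CPM in iHoxc6, 772, 780 and 774 CPM in iHoxc8, 411, 414 and 394 CPM in iHoxc9 and 691, 718 and 707 CPM in iHoxc10, and the iHoxc9 libraries lay under all others of day 4. The fall of 0.90 (SE 0.21, adjusted p = 0.00283) was lost without control replicate 1 or iHoxc9 replicate 1 (adjusted p up to 0.0124). Stmn2 was at 1336, 938 and 1651 CPM in control and from 829 to 1221 CPM in the induced libraries, with no difference past the test.

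By line, no member passed in iHoxc6, where 0.363% of all genes passed as higher and 0.224% as lower; 1 member had an unadjusted p under 0.05 and DESeq2's Wald test also called 0. In iHoxc8 2 members were higher (1.03% of all genes) and 1 lower (1.09%), a count of 3 that fell to 1 without control replicate 3, iHoxc8 replicate 1 or iHoxc8 replicate 3. In iHoxc9 1 was higher (6.95%) and 3 lower (7.13%), of which Prph also passed a log2 fold change of 2 (1.17%). In iHoxc10 3 were higher (6.67%) and 1 lower (7.75%). Without control replicate 2 the counts were 1 in iHoxc6 and 2 in iHoxc8, with 4 each in iHoxc9 and iHoxc10.

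**Figure D3:**
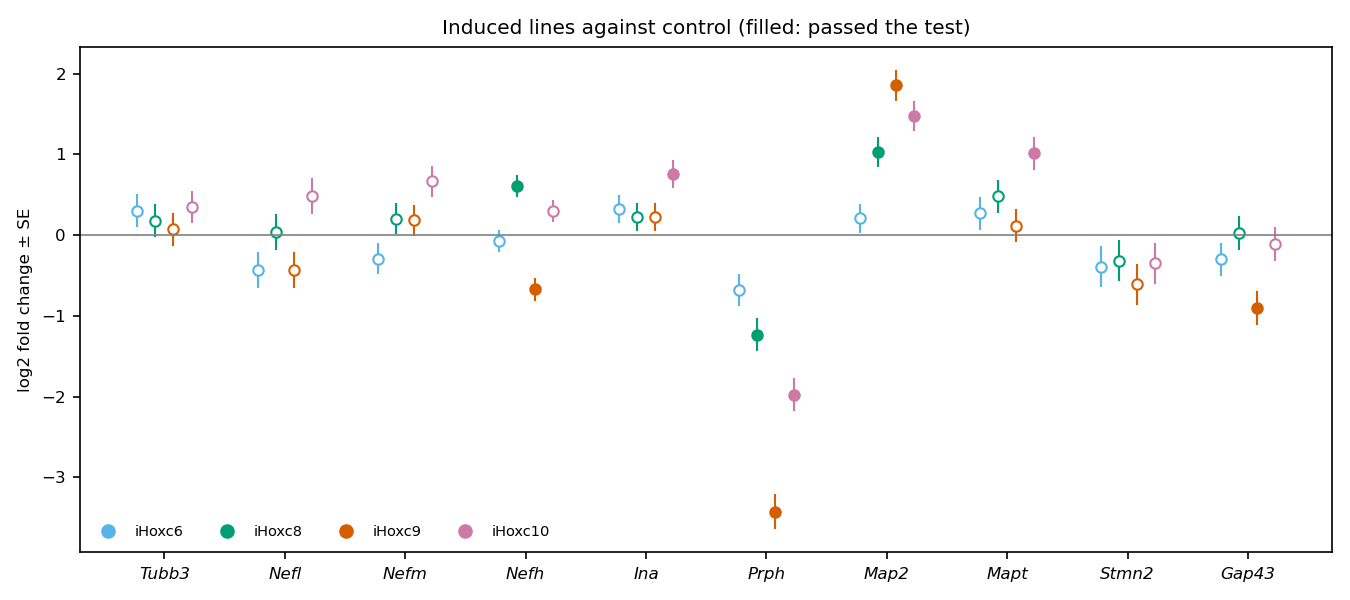
Log2 fold change of each gene (x axis) in the 4 induced lines against control, with bars for the SE, filled where the gene passed the test. Prph reaches -3.43 in iHoxc9, Map2 reaches 1.86 in iHoxc9, and Tubb3 and Stmn2 have no filled point.

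The third comparison set iHoxc9 against iHoxc10, which shared a run but were different lines. In iHoxc9 4 members were lower, against 2.4% of all genes, and 0 were higher, against 2.6%. Prph fell by 1.45 (SE 0.21, adjusted p = 4.09e-05), Nefh by 0.97 (SE 0.14, adjusted p = 4.30e-05), Nefl by 0.92 (SE 0.22, adjusted p = 0.00959) and Mapt by 0.90 (SE 0.21, adjusted p = 0.00599), with all iHoxc9 libraries under all iHoxc10 libraries. Nefm, Ina, Stmn2 and Gap43 had the same separation without passing, Gap43 with an adjusted p of 0.0155, so that 8 of 10 members were separated, against 13.6% of all genes. The pan-neuronal genes had a median log2 difference of -0.38 in the same comparison, and measured from it Prph was at -1.07 and Map2 at 0.76. Libraries of these 2 groups with the same replicate number deviated together from their group means. With the replicate block in the fit of all libraries 3 members passed, without Nefl (adjusted p = 0.0113), and in a fit of only the 2 groups 7 passed, or 10 with the block. That last fit had 2 residual degrees of freedom and called 5807 of all genes. For the fit of only the 2 groups without the block the share of all genes is not given here. The 4 calls fell to 2 without any of the iHoxc9 libraries or without iHoxc10 replicate 1 or 2.

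In the remaining pairs of lines, 2 members differed between iHoxc6 and iHoxc8 (3.55% of all genes), Nefh and Map2 being lower in iHoxc6. Neither was kept without iHoxc6 replicate 1, 2 or 3, iHoxc8 replicate 1 or 3, or iHoxc9 replicate 2 or 3, and 1 was kept without iHoxc8 replicate 2 or iHoxc10 replicate 3. With the replicate block in a fit of only these groups 6 passed, but that fit called 4984 of all genes. Between iHoxc6 and iHoxc9 3 differed (11.7%), Nefh and Prph being higher in iHoxc6 and Map2 lower. In a fit of only the 2 groups 5 passed, with or without the block. With the block that fit called 7266 of all genes, and without it the share of all genes is not given here. Between iHoxc6 and iHoxc10 4 differed (11.0%), Prph being higher in iHoxc6 and Nefl, Nefm and Map2 lower, a count of 2 without iHoxc6 replicate 2 or iHoxc10 replicate 1. Between iHoxc8 and iHoxc9 4 differed (5.37%), Nefh, Prph and Gap43 being higher in iHoxc8 and Map2 lower, a count of 2 without iHoxc8 replicate 1 or 2 or iHoxc9 replicate 1 or 3. Between iHoxc8 and iHoxc10 0 passed (2.93%), with 6 members at an unadjusted p under 0.05 and 1, Ina, called by DESeq2's Wald test.

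Ordered by mean level, all 10 members were lowest on day 2. Among the day 4 groups 3 of 40 neighboring pairs in this order passed the test. They were Prph in iHoxc10 above iHoxc9, Map2 in iHoxc8 above iHoxc6, and Nefh in iHoxc6 above iHoxc9. Neighbors were picked by the same means that were tested and so lie close by construction. No share of all genes was taken, so the count does not say how often groups differ. iHoxc10 was highest for Tubb3, Nefl, Nefm, Ina and Mapt, iHoxc9 for Map2, iHoxc8 for Nefh and Gap43, and control for Prph and Stmn2. The members' share of all counts was highest in iHoxc10, at 1.28% ± 0.0282 (SD, n = 3), against 1.07% ± 0.0550 in iHoxc8, 0.975% ± 0.0354 in iHoxc9 and 0.941% ± 0.0199 in iHoxc6.

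Ratios of 2 members within a library do not depend on how libraries are scaled. The log2 ratio of Prph to Ina was -2.42, -3.34 and -2.37 in the control libraries, -3.65, -3.41 and -4.13 in iHoxc6, -4.12, -3.98 and -4.44 in iHoxc8, -5.55, -5.28 and -5.52 in iHoxc10 and -6.46, -6.08 and -6.59 in iHoxc9. All 4 lines lay under control without overlap. The log2 ratio of Mapt to Map2 was -2.67, -1.83 and -2.16 on day 2, 0.98, 0.60 and 1.14 in control, and -0.93, -0.64 and -0.95 in iHoxc9, so that Map2 had more counts than Mapt on day 2 and in iHoxc9 and fewer in control. In iHoxc10 it was 0.21, 0.72 and 0.40, above all of iHoxc9 and overlapping control. These counts are not divided by length, so the sign of a ratio does not say which gene was higher. In iHoxc9 Mapt was at 70.1 and Map2 at 57.5 CPM per kilobase of exon. Per kilobase of longest transcript they were at 100.4 and 151.1 CPM. Nefh against Nefl had a mean log2 ratio of -4.50 on day 2 and -6.75 in control, and Gap43 against Stmn2 one of 0.07 and -0.75. With 3 libraries against 3 the exact two-sided permutation test cannot give less than 0.1, and 14 of 30 comparisons of ratios reached it, with a Benjamini-Hochberg adjusted p of 0.214.

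**Figure D4:**
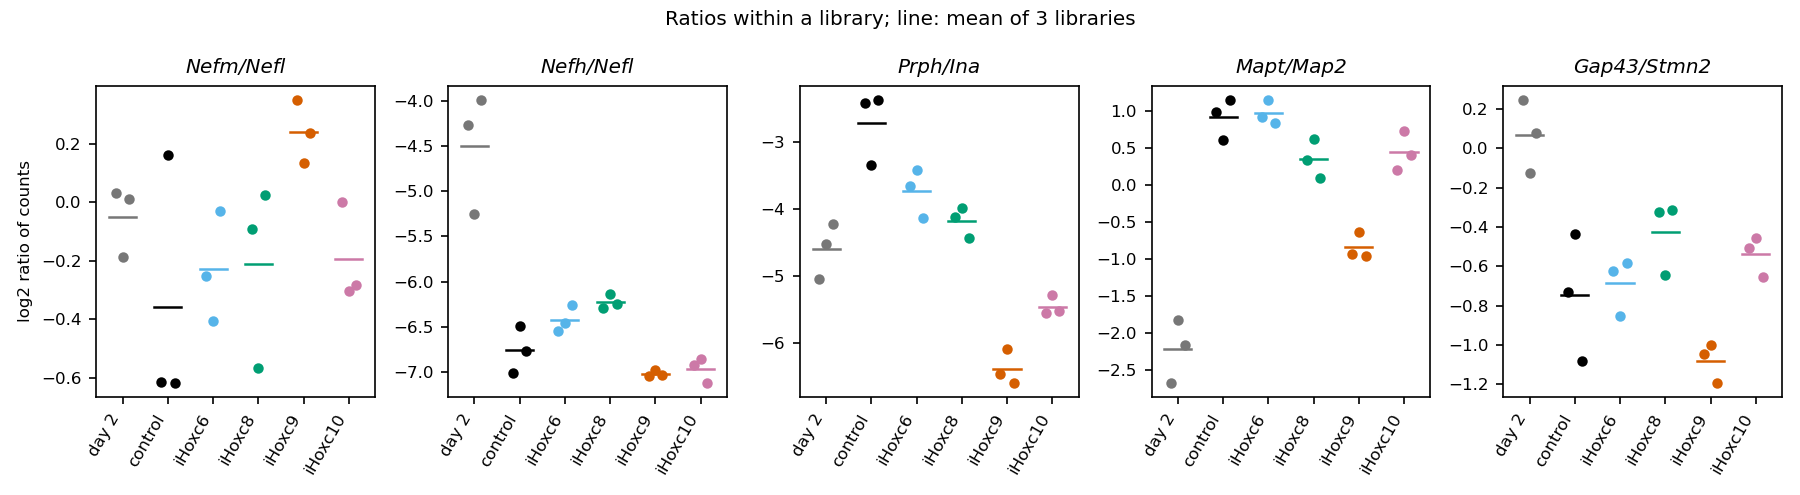
Log2 ratio of counts of 2 genes within each library (y axis) for the 6 groups, with a line for the mean of 3 libraries. Prph to Ina runs from a mean of -2.71 in control to -6.37 in iHoxc9, and Mapt to Map2 is below 0 on day 2 and in iHoxc9 only. Counts are not divided by gene length, on which the crossing of 0 depends.

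The other cytoskeleton genes moved most in iHoxc10. Of 50 genes in the tubulin, microtubule-associated, growth cone and axon initial segment lists, 26 were higher than control in iHoxc10 (6.67% of all genes) and 0 lower (7.75%), with a median log2 fold change of 0.60, while 1 was higher in iHoxc6 (0.363%), 4 in iHoxc8 (1.03%) and 7 in iHoxc9 (6.95%). In iHoxc10 they included 10 of 17 microtubule-associated and motor genes, Map1b at 1.41 (SE 0.24, adjusted p = 0.000199) and Dclk1 at 1.35 (SE 0.14, adjusted p = 4.43e-07) among them, 10 of 17 growth cone genes, led by the membrane-bound actin regulator Marcks at 1.21, and 5 of 7 axon initial segment genes, with the spectrin gene Sptbn4 at 0.97. Tubb4a, at 1.15, was the only one of 9 tubulins. Of 12 pan-neuronal genes 6 were higher in iHoxc10, led by Rbfox3 (1.36) and Syt1 (1.08), and 2 in iHoxc9. In iHoxc9 the growth cone list held 5 genes that were higher, Marcks at 1.25 among them, and 1 that was lower, Cntn2, which fell by 1.35.

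Markers of cell state and cell type moved beside these changes. Of all genes 6.67% were higher than control and 7.75% lower in iHoxc10, and 6.95% and 7.13% in iHoxc9. The shares were 1.03% and 1.09% in iHoxc8, and 0.363% and 0.224% in iHoxc6. In iHoxc10 4 of 7 cell cycle genes and 3 of 7 progenitor genes were lower than control. In iHoxc9 2 cell cycle genes were lower, with 2 progenitor genes higher and 2 lower, and in iHoxc8 1 progenitor gene was higher. The summed level of the cell cycle list ran from 522.1 to 644.0 CPM in iHoxc10 and from 828.2 to 906.3 CPM in iHoxc9, against 817.2, 1220 and 718.2 CPM in the control libraries. Of 7 MN markers 4 were lower in iHoxc9, 2 each in iHoxc8 and iHoxc10 and 1 in iHoxc6, and their summed level ran from 298.5 to 323.7 CPM in iHoxc9, 486.0 to 546.9 CPM in iHoxc10, 431.1 to 467.8 CPM in iHoxc8, 391.5 to 445.5 CPM in iHoxc6 and 544.5 to 570.8 CPM in control. Of 11 spinal interneuron markers 3 were higher and 2 lower in iHoxc9, and 2 higher in iHoxc10, while 2 were lower in iHoxc8 and 1 in iHoxc6. Their summed level ran from 46.97 to 60.7 CPM in iHoxc9 and 65.1 to 88.5 CPM in iHoxc10 against 17.9 to 22.4 CPM in control. In iHoxc8 it ran from 16.7 to 20.8 CPM and in iHoxc6 from 11.55 to 14.2 CPM. Slc17a6, a glutamate transporter, was at 5.84 on the log2 scale in iHoxc9 and the transcription factor Sim1 at 3.49 in iHoxc10. Of 7 sensory neuron markers 2 were higher and 3 lower in iHoxc9, 2 were higher in iHoxc10, and 1 was higher in each of iHoxc6 and iHoxc8. The summed level of the list ran from 77.6 to 104.2 CPM in iHoxc9 against 36.11 to 51.52 CPM in control. It was also above all control libraries in iHoxc6 (65.0 to 85.55 CPM) and iHoxc10 (56.5 to 69.0 CPM), and ran from 51.49 to 67.8 CPM in iHoxc8. Of 7 glial markers 2 were higher and 1 lower in iHoxc9 and in iHoxc10, where the list ran from 189.3 to 202.7 CPM and from 226.2 to 254.8 CPM against 192.4 to 245.1 CPM in control. In iHoxc8 1 glial marker was higher. The pluripotency list lay at 1.46 CPM or less in every day 4 library, with Pou5f1, Nanog and Zfp42 at no more than 3 counts. The endoderm and mesoderm list ran from 14.7 to 58.8 CPM in the day 4 libraries, with Sox17, Afp, T and Ptprc at no more than 3 counts. What part these markers' changes had in the levels of the members was not tested.

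**Figure D5:**
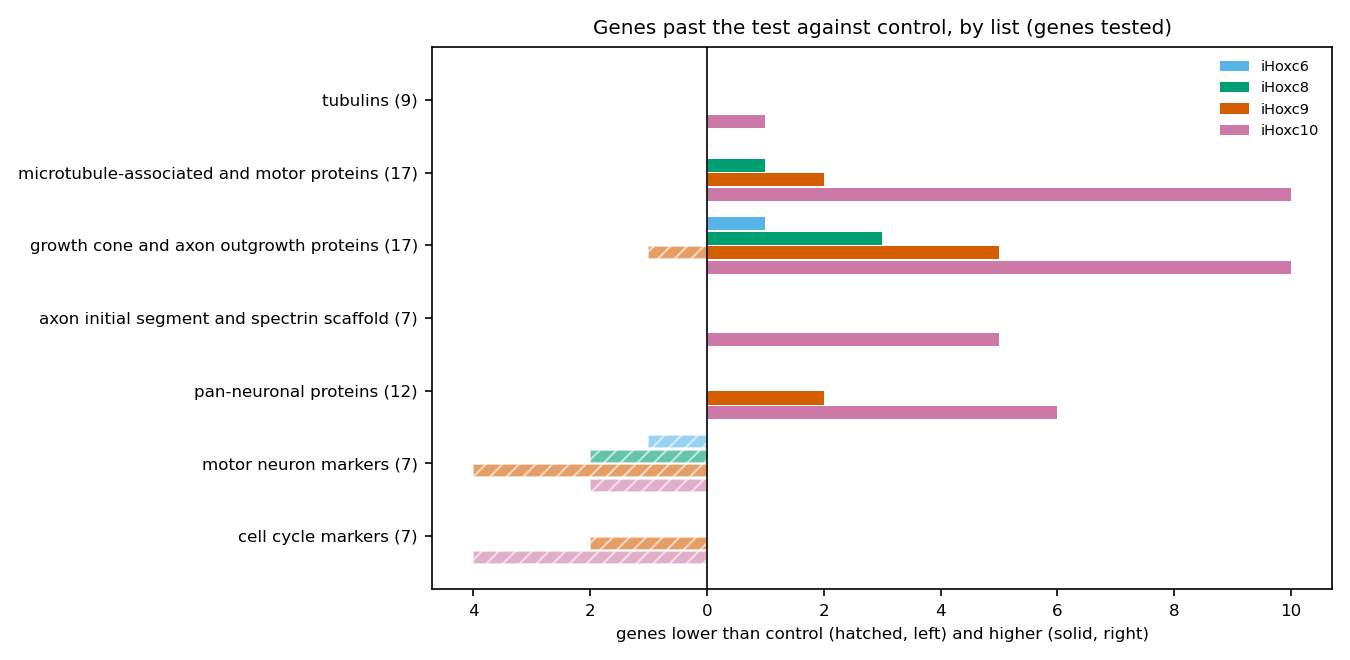
Number of genes of each list that passed the test against control in the 4 induced lines, higher to the right and lower (hatched) to the left, with the genes tested in parentheses. In iHoxc10 10 of 17 microtubule-associated and 10 of 17 growth cone genes were higher (6.67% of all genes). In iHoxc9 4 of 7 MN markers were lower (7.13% of all genes).

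Across the 15 day 4 libraries, the gene whose centered log2(CPM + 1) profile was nearest to each member was taken among 9630 genes, by the root mean square difference. For Prph it was Lgals1, at a difference of 0.38 against the 1.16 by which Prph itself varied. Lgals1, which encodes galectin-1, had means of 114.3 CPM in control and 14.9 CPM in iHoxc9. For Map2 it was Lin7a (0.21 against 0.73), which had means of 15.1 CPM in control and 75.9 CPM in iHoxc9. Asic2, an acid-sensing ion channel, was nearest to both Nefh and Gap43, and these were the only members with another member among their 20 nearest genes, Gap43 ranking 5 for Nefh and Nefh ranking 19 for Gap43. The nearest genes of the others were Pqbp1 for Tubb3, Rundc3b for Nefl, Rufy3 for Nefm, Arhgap33 for Ina, Rtn1 for Mapt and Ppp2r2d for Stmn2. These are descriptions, and the libraries of a group share a line and a run.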

How the data were processed

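RNA-seq of 18 libraries in 6 groups of 3 was analysed. The authors used STAR (2.7.0c) on mm10 and featureCounts (Rsubread) on RefSeq, and deposited raw counts per Entrez gene, not normalized, for each replicate. Groups, replicate numbers and runs were taken from the labels.

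Counts were tested in R 4.3.3 with edgeR 4.0.16 (TMM factors, quasi-likelihood test, 1 fit of all libraries by group, 12 residual degrees of freedom) over the 20944 genes that had a count of 1 or more in some iHox library. In each of 15 comparisons p-values were adjusted over all these genes by Benjamini-Hochberg. A gene passed at an adjusted p under 0.01. The SE of a log2 fold change was derived from the F statistic. Levels are TMM-normalized CPM, and CPM per kilobase used exon lengths of GENCODE vM21. Ratios used a prior count of 0.5, and profiles log2(CPM + 1). The members and lists were chosen with earlier results of these data known. All 10 members are named, and from each list up to 3 genes with the largest change in control against day 2 and up to 2 in the other comparisons. A result that this would name is not reported here. On simulated counts of 20944 genes for iHoxc9 against control, the edgeR test recovered 100 of 100 genes changed by a log2 fold of 2 and 76 of 100 changed by 1, with 5 other calls. No 2 libraries of a group were alike within sampling noise.

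The labels number the libraries of each group from 1 to 3, with no statement that a number marks a shared culture. The correlation of deviations of same-numbered libraries was above 0.1 for every number between iHoxc9 and iHoxc10 (0.474 to 0.651), iHoxc6 and iHoxc8 (0.287 to 0.630) and iHoxc6 and iHoxc9 (0.117 to 0.215), a hint of pairing from the data and not the design, and in no other comparison. Alternatives were DESeq2 1.42.0's Wald test and size factors, upper-quartile factors, stricter and no filters, other thresholds, the replicate block, fits of only the groups compared and each library left out in turn. The block in fits of only 2 groups was added after seeing the data. Protein sequences were not used here.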

Additional observations from a re-analysis of the deposited data

Results flagged for a closer look

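Members differed between 2 induced lines in 17 cases, with 10 members tested in every pair, by edgeR's quasi-likelihood test at an adjusted p under 0.01. These are the contrasts of line with line given above, from which control cancels, and only iHoxc6 has a control of its own line. Of all genes 2.93% (iHoxc8 and iHoxc10) to 11.7% (iHoxc6 and iHoxc9) differed in a pair. For iHoxc9 and iHoxc10 2.6% were higher and 2.4% lower. Several of the 17 were lost when single libraries were left out, as given above. Values are log2 differences of the first line minus the second. For Prph they were 2.75 between iHoxc6 and iHoxc9, 1.303 between iHoxc6 and iHoxc10, 2.20 between iHoxc8 and iHoxc9 and -1.45 between iHoxc9 and iHoxc10. For Map2 they were -0.83 between iHoxc6 and iHoxc8, -1.65 between iHoxc6 and iHoxc9, -1.27 between iHoxc6 and iHoxc10 and -0.82 between iHoxc8 and iHoxc9. For Nefh they were -0.68 between iHoxc6 and iHoxc8, 0.60 between iHoxc6 and iHoxc9, 1.28 between iHoxc8 and iHoxc9 and -0.97 between iHoxc9 and iHoxc10, so that Nefh lay above control in iHoxc8 (0.60) and under it in iHoxc9 (-0.67). For Nefl they were -0.91 between iHoxc6 and iHoxc10 and -0.92 between iHoxc9 and iHoxc10, with -0.43 in iHoxc6, -0.43 in iHoxc9 and 0.48 in iHoxc10 against control. Nefm differed by -0.96 between iHoxc6 and iHoxc10, Mapt by -0.90 between iHoxc9 and iHoxc10 and Gap43 by 0.93 between iHoxc8 and iHoxc9. Only the differences between iHoxc9 and iHoxc10 lie within a sequencing run, and these groups still differ in line. Groups of 3 libraries were not tested for outliers.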

How the results depend on the processing

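All 10 members passed against day 2 in all 5 groups under every alternative run, apart from Nefh in iHoxc9 with the added fold threshold. Against control, the count of members past the test was 1 in iHoxc8 when only the 2 groups were fitted (3 in the report). With a log2 fold change above 2 required as well it was 0 in iHoxc8, 1 in iHoxc9 and 0 in iHoxc10, and between lines 0 for iHoxc9 and iHoxc10, 0 for iHoxc6 and iHoxc8, 1 for iHoxc6 and iHoxc9, 0 for iHoxc6 and iHoxc10 and 1 for iHoxc8 and iHoxc9. Fits of only the groups compared gave 7 for iHoxc9 and iHoxc10 and 5 for iHoxc6 and iHoxc9. The share of all genes called in those fits is not given here, so a general rise in calls cannot be told from a rise among the members. For iHoxc8 and iHoxc10, DESeq2's Wald test gave 1 and an adjusted p under 0.05 gave 1, against 0. Leaving out each library in turn gave 0 to 1 members for iHoxc6 against control, 1 to 3 for iHoxc8 against control, 2 to 5 for iHoxc9 and iHoxc10, 0 to 2 for iHoxc6 and iHoxc8, 2 to 5 for iHoxc6 and iHoxc10, 2 to 4 for iHoxc8 and iHoxc9, and 3 to 8 for any difference among the day 4 groups. Calls were gained as well as lost when a library was left out, and the cause was not tested.

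With the replicate block in the fit of only 2 groups, 10 members passed for iHoxc9 and iHoxc10, 6 for iHoxc6 and iHoxc8 and 5 for iHoxc6 and iHoxc9, with 2 residual degrees of freedom. In the same order these fits called 5807, 4984 and 7266 of all genes, so calls were frequent among all genes as well. With the block in the fit of all libraries 3 passed for iHoxc9 and iHoxc10, where Nefl was lost (adjusted p = 0.0113). Where numbers were not taken as pairs, the block gave 2 for iHoxc8 against control (Nefh lost, adjusted p = 0.0139) and 5 for iHoxc6 and iHoxc10 (Mapt gained, adjusted p = 0.00922), and it changed no other call of a member in a comparison of 2 groups.

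Of 3780 values of single members under alternatives, 3603 kept their direction and side of the threshold, 82 lost their call, 40 gained one and 0 calls reversed; 55 values that had not passed changed sign. At 24498630 or more counts a library all members lay above 3 counts in every library.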
